A study of Arabidopsis thaliana with 9 samples.

Results

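Very-long-chain lipids are part of the waterproof surface of plants. Peaks of 2 tagged growth-regulating factors were examined at 47 genes chosen by name, not all of which make such lipids. The genes were all protein-coding genes whose symbol or synonym is KCS1 to KCS21, LACS1 to LACS9, GPAT1 to GPAT9, or CER with a number, out of 27444 protein-coding genes on chromosomes 1 to 5. They comprised 21 KCS, 8 LACS and 9 GPAT genes and 9 further CER genes. As a set they were selected on peaks in the same lists that are described here, so all counts are descriptions and none has a test. The gene names decided membership, and 45 of the 47 matched by their primary symbol.

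The series used chromatin immunoprecipitation sequencing (ChIP-seq), in which an antibody recovers the DNA bound by a protein, on whole Arabidopsis thaliana plants of strain Ws, 2 weeks old and grown on MS medium. The antibody was against GFP in every sample. Plants carried 35S:GRF3-GFP (3 samples), 35S:GRF1-GFP (3 samples) or 35S:GFP alone (3 samples), and the GFP-alone samples have no peak list among the files used here and were not analysed here. The 35S promoter is strong and active in most plant tissues, so the fusion proteins were not limited to the cells that normally make them, and binding in single cell types cannot be told apart in whole plants. GRF proteins (growth-regulating factors) switch genes on or off in growing plant organs and are known above all for raising leaf size.

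In this pathway, LACS enzymes activate fatty acids to acyl-CoA. KCS enzymes (3-ketoacyl-CoA synthases) carry out the condensing step of elongation in the endoplasmic reticulum, and the elongated chains become wax, suberin, sphingolipids and seed oil. GPAT enzymes join acyl groups to glycerol, and several of them make the building blocks of cutin and suberin. CER (eceriferum) genes were found through mutants with altered stem wax and have mixed roles.

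Each library came with its own peak list. The GRF3-GFP lists held 2258, 2301 and 5944 peaks, and the GRF1-GFP lists held 1410, 1122 and 1878. The share of summits that lay in a protein-coding gene or up to 1 kb away ran from 52.1% to 69.5% in GRF3-GFP lists and from 45.4% to 82.8% in GRF1-GFP lists, the highest share being that of GRF1-GFP replicate 2. Fold is the authors' enrichment of a peak over the caller's control, and −log10 q is the caller's significance; both are set against those of other peaks only inside a list, and a mean over libraries is given for single regions only, to show their spread. No list gives read counts, so the sequencing depth is unknown.

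A gene was given a peak where the summit, the highest point of the peak, lay in its span or up to 1 kb outside it. A region was a run of overlapping peaks found in at least 2 of the 3 libraries of a factor. Regions of GRF3-GFP were found at 5 of the 47 genes (10.6%), against 5.52% of all protein-coding genes. Regions of GRF1-GFP were found at 5 of the 47 (10.6%), against 3.11% of all. The GRF3-GFP genes were KCS3, KCS12, KCS17, KCS18 and GPAT7, and the GRF1-GFP genes were KCS3, KCS4, KCS12, LACS3 and GPAT8. Both factors had regions at KCS3 and KCS12, which is 4.26% of the 47 genes, against 0.907% of all genes. In all, 8 of the 47 had a region of either factor (17.0%), against 7.72% of all genes. The spans of the 47 genes were longer (median 2710 bp) than those of all protein-coding genes (median 2078 bp), and the part of span length in these shares was not tested.

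**Figure D1:**
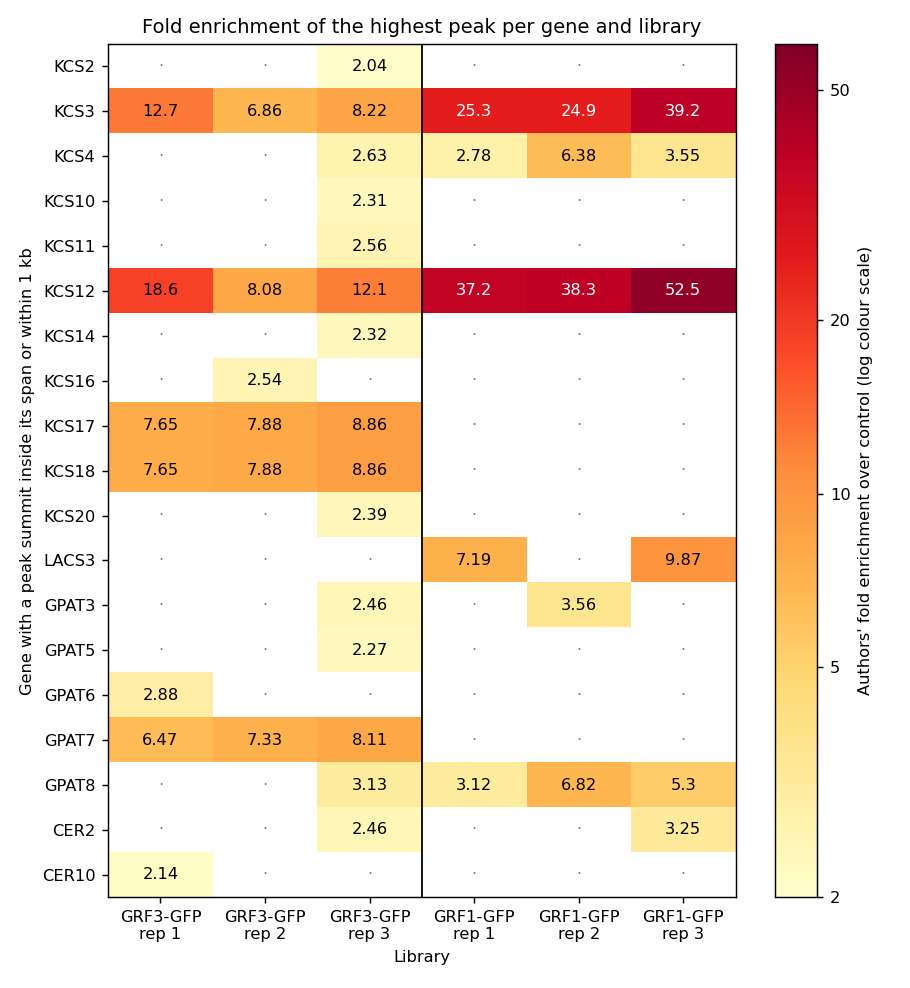
Fold enrichment of the highest peak at each of the 19 genes with a peak, in the 3 GRF3-GFP and the 3 GRF1-GFP libraries; a dot marks a library with no peak there, and colour is on a log scale. KCS3 and KCS12 have a peak in all 6 libraries, while many genes have 1 value, mostly in GRF3-GFP replicate 3.

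KCS12, a condensing enzyme gene of fatty acid elongation, carried the peaks of highest fold in the set, in every library. Its fold was 18.6, 8.08 and 12.1 in GRF3-GFP replicates 1, 2 and 3, and 37.2, 38.3 and 52.5 in GRF1-GFP replicates 1, 2 and 3. Within its own list the peak stood at rank 27, 237 and 86 by fold in the GRF3-GFP libraries, and at rank 16, 13 and 16 in the GRF1-GFP libraries. The GRF3-GFP region, at chromosome 2, 12277173 to 12277436, had a mean fold of 12.9 ± 5.3 (SD, n = 3). The GRF1-GFP region, at 12277160 to 12277452, had a mean fold of 42.7 ± 8.6 (SD, n = 3). In these regions the summits of the 6 libraries lay within 20 bp of each other, inside the gene span, 92.2 to 92.9% of the way from its left end. GRF3-GFP replicate 3 alone had a second peak inside the gene, 59.2% of the way from its left end, with a fold of 2.56.

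KCS3, another condensing enzyme gene, whose product has been reported to hold back the main wax elongation enzyme KCS6, had the same arrangement just outside its span. Its fold was 12.7, 6.86 and 8.22 in GRF3-GFP replicates 1, 2 and 3, and 25.3, 24.9 and 39.2 in GRF1-GFP replicates 1, 2 and 3. The GRF3-GFP region (chromosome 1, 2392757 to 2393021) had a mean fold of 9.24 ± 3.03, and the GRF1-GFP region (2392754 to 2393032) had a mean fold of 29.8 ± 8.1 (SD, n = 3 each). The 6 summits lay within 12 bp of each other, at 155 bp (GRF3-GFP) and 147 bp (GRF1-GFP) right of the span. GRF1-GFP replicate 1 alone had a second peak, inside the gene, with a fold of 3.74.

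The peaks at KCS3 and KCS12 shared a shape as well as a position. They were 251 to 279 bp wide at KCS3 and 215 to 291 bp wide at KCS12, while the median peak width of the 6 lists ran from 306 to 342 bp. The left edges of the 6 peaks fell within 5 bp of each other at KCS3 and within 21 bp at KCS12. The summit sat near the left edge, at 6.72 to 10.9% of the peak's width at KCS3 and at 5.30 to 15.5% at KCS12. Summits in the outermost 25% of the width on either side were found in 30.0 to 32.1% of all GRF3-GFP peaks and in 39.1 to 43.9% of all GRF1-GFP peaks. These shares count both edges and a wider part of the width. The share of all peaks with a summit as near the left edge as here was not computed. A peak in all 6 libraries was present at 2 of the 47 genes (4.26%), against 0.521% of all genes.

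**Figure D2:**
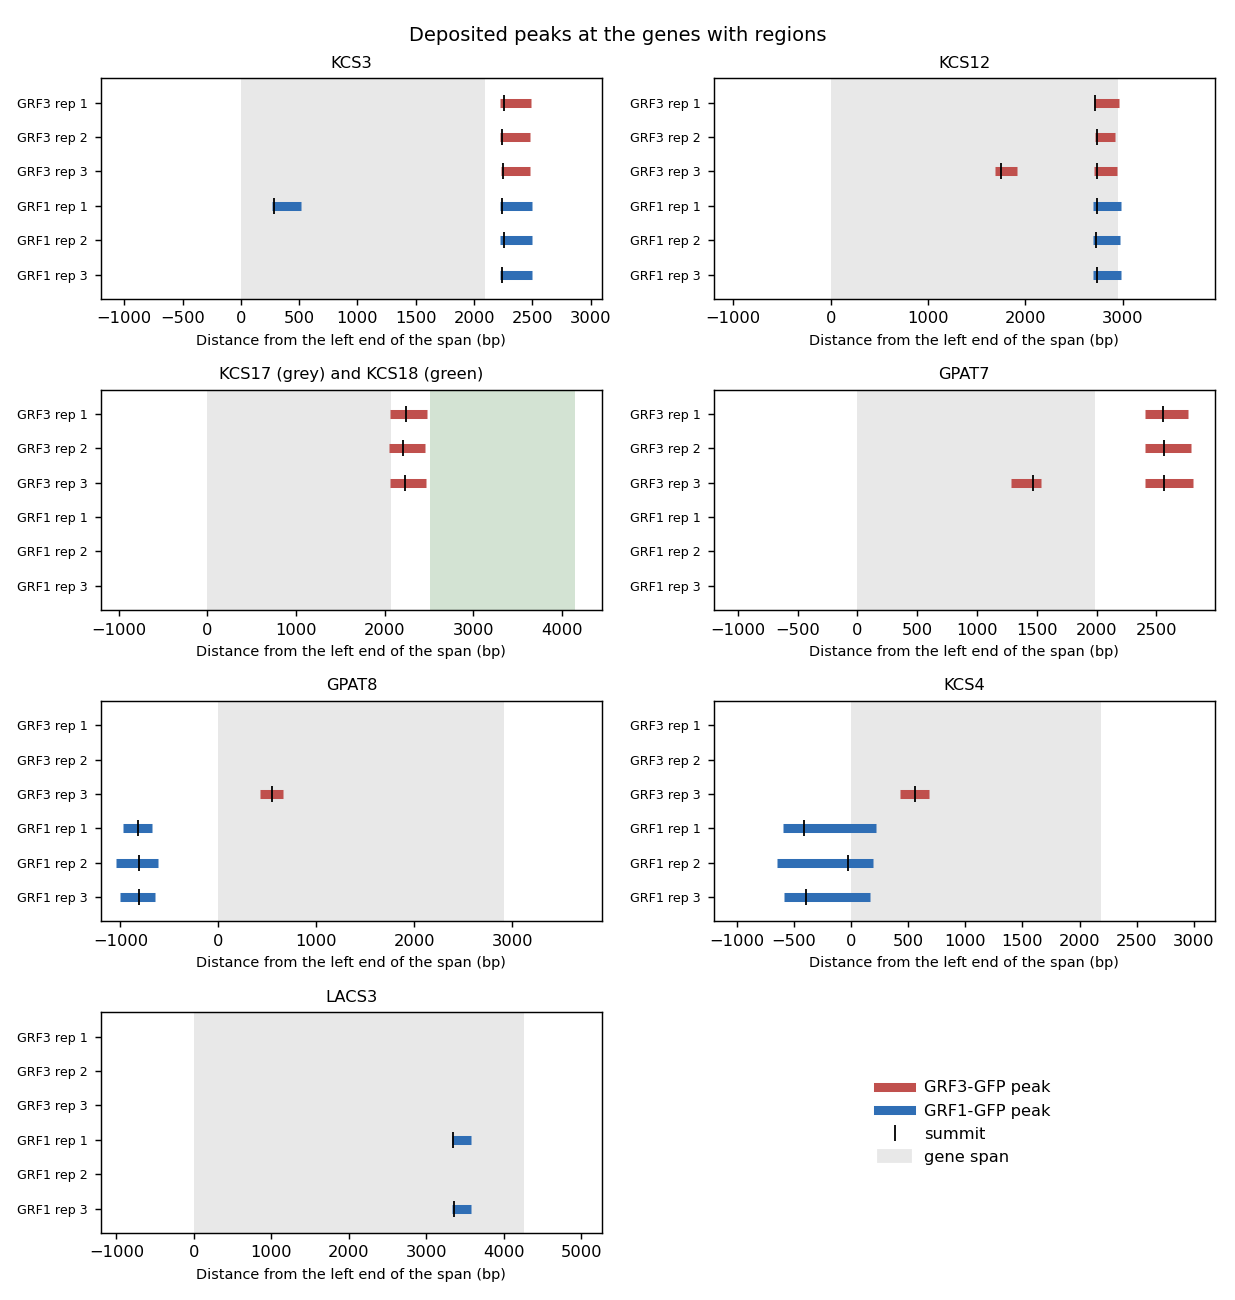
Extent of each deposited peak (bar) and its summit (black tick) in the 6 libraries at the 8 genes with a region, in bp from the left end of the gene span (shaded; strand is not given). At KCS3 and KCS12 all 6 libraries have a peak at one position with the summit at its left end, the KCS17 to KCS18 and GPAT7 regions are in the GRF3-GFP libraries, and the GPAT8, KCS4 and LACS3 regions are in GRF1-GFP libraries.

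GRF3-GFP had 1 region between KCS17 and KCS18, which are neighbours. KCS18 is FAE1, the elongation enzyme that makes the very-long-chain fatty acids of seed oil. The region lay at chromosome 4, 16493740 to 16494168, with its summit 157 bp right of KCS17 and 286 bp left of KCS18, so both genes are counted for the same region. Its fold was 7.65, 7.88 and 8.86 in GRF3-GFP replicates 1, 2 and 3 (mean 8.13 ± 0.64, SD, n = 3), and no GRF1-GFP library had a peak there. The summits of the 3 libraries were central in the peak, at 39.9 to 44.6% of its width.

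GPAT7, a glycerol-3-phosphate acyltransferase of the suberin group, was the other gene with a GRF3-GFP region and no GRF1-GFP peak. The fold of this region (chromosome 5, 1837449 to 1837851) was 6.47, 7.33 and 8.11 in GRF3-GFP replicates 1, 2 and 3 (mean 7.30 ± 0.82, SD, n = 3). Its summit was 572 bp right of GPAT7 but 226 bp left of MYB33, a MYB transcription factor gene, so the nearer gene was MYB33. GRF3-GFP replicate 3 had a further peak inside GPAT7, with a fold of 2.86.

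The GRF3-GFP regions at these genes were few but each was found in all 3 libraries. All 4 were, against 43.6% of the 2203 GRF3-GFP regions, a share that includes regions far from genes. Over all protein-coding genes, 1515 had a GRF3-GFP region, and 829 had one in all 3 libraries. By genes, that is 5 of 47 (10.6%), against 3.02% of all genes with a GRF3-GFP region in all 3 libraries. Over all peaks at the 47 genes, the median fold was 7.06, 7.33 and 2.56 in GRF3-GFP replicates 1, 2 and 3, against 2.41, 2.44 and 2.56 over all peaks of those lists. The medians at the 47 genes rest on 6, 5 and 16 peaks. The list medians include peaks far from genes, and medians over only the peaks near genes were not computed.

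GPAT8, which acts with GPAT4 in making cutin, had a region in the GRF1-GFP libraries and not in the GRF3-GFP libraries. Its fold was 3.12, 6.82 and 5.30 in GRF1-GFP replicates 1, 2 and 3 (mean 5.08 ± 1.86, SD, n = 3), at chromosome 4, 172903 to 173334. The summit was 807 bp left of GPAT8 and 301 bp right of AT4G00390, which was the nearer gene. GRF3-GFP had a peak at GPAT8 in replicate 3 only, at another place, inside the gene and with a fold of 3.13.

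KCS4, a further condensing enzyme gene, had a broad GRF1-GFP region of 872 bp (chromosome 1, 6728096 to 6728967). Its fold was 2.78, 6.38 and 3.55 in GRF1-GFP replicates 1, 2 and 3 (mean 4.24 ± 1.90, SD, n = 3). The summit was 407, 28 and 394 bp left of the gene in replicates 1, 2 and 3, so replicate 2 stood apart from the other two. With the median summit, 394 bp from KCS4, the nearer gene was AT1G19430 at 278 bp. GRF3-GFP replicate 3 had a peak inside KCS4 with a fold of 2.63.

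LACS3, a gene for a long-chain acyl-CoA synthetase, was the LACS gene with a peak, and the other 7 LACS genes had none in any list. Over all genes, 22.0% had a peak in any list, so 7 of 8 without one does not set the LACS genes apart. The GRF1-GFP region of LACS3 lay inside the gene at chromosome 1, 23918898 to 23919147. It had folds of 7.19 and 9.87 in replicates 1 and 3 and no peak in replicate 2 or in any GRF3-GFP library. The left edge was the same base in both libraries, and the summit sat at 6.97% and 12.4% of the peak's width, inside the range given for KCS12.

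Of the 5 GRF1-GFP regions, 4 were in all 3 libraries, against 51.3% of the 1147 GRF1-GFP regions. That share covers regions anywhere in the genome, including those far from genes. Over all protein-coding genes, 854 had a GRF1-GFP region, and 629 had one in all 3 libraries. The 4 of 5 seen here is therefore not set apart from genes with a region in general. These 4 genes are 8.51% of the 47, against 2.29% of all genes. Over all peaks at the 47 genes, the median fold was 5.47, 6.82 and 7.59 in GRF1-GFP replicates 1, 2 and 3, against 2.43, 4.52 and 2.60 over all peaks of those lists. The medians at the 47 genes rest on 6, 5 and 6 peaks, those of KCS3 and KCS12 included. The list medians include peaks far from genes, and medians over only the peaks near genes were not computed. Summits near protein-coding genes made up 46.0%, 82.8% and 45.4% of these lists.

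**Figure D3:**
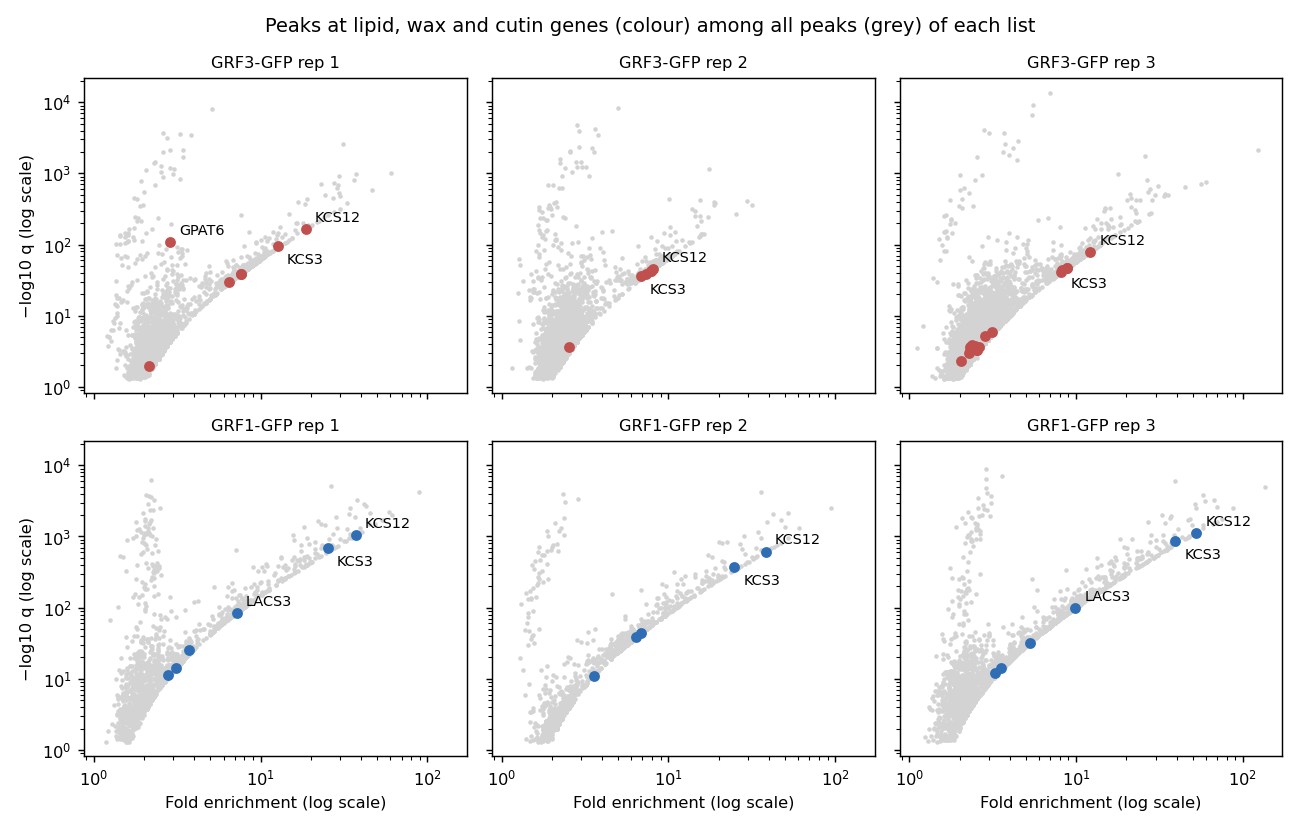
Fold against −log10 q (log axes) of every peak in each of the 6 lists, with peaks at the 47 genes in colour (GRF3-GFP above, GRF1-GFP below). KCS12 is the highest by fold of the coloured points in every list, and GPAT6 in GRF3-GFP replicate 1 has a −log10 q far above most peaks of its fold.

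Outside these regions, peaks at the set were mostly low peaks of a single GRF3-GFP library. At least 1 GRF3-GFP library had a peak at 18 of the 47 genes (38.3%), against 18.5% of all genes. For GRF1-GFP this was 7 of the 47 (14.9%), against 6.33% of all genes. By library, GRF3-GFP replicates 1, 2 and 3 had peaks at 7, 6 and 15 of the 47 genes, that is 14.9%, 12.8% and 31.9%, against 7.38%, 5.67% and 14.5% of all genes. GRF1-GFP replicates 1, 2 and 3 had peaks at 5, 5 and 6, that is 10.6%, 10.6% and 12.8%, against 3.13%, 4.61% and 4.03% of all genes. The mean was 9.33 ± 4.93 genes in GRF3-GFP and 5.33 ± 0.58 genes in GRF1-GFP libraries (SD, n = 3 each). GRF3-GFP replicate 2, with 6 genes, was level with GRF1-GFP replicate 3, so the groups touched. Between libraries of the same replicate number, the GRF3-GFP library had 2, 1 and 9 genes more than the GRF1-GFP library for numbers 1, 2 and 3, and the share of all genes was also higher in the GRF3-GFP library of each pair. The labels do not say whether a shared number marks a shared planting block. The mean difference of 4 genes was smaller than the SD among the GRF3-GFP libraries. Without GRF3-GFP replicate 3 it was 1.17 genes, and 8 genes had a GRF3-GFP peak (17.0%), against 9.58% of all genes.

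**Figure D4:**
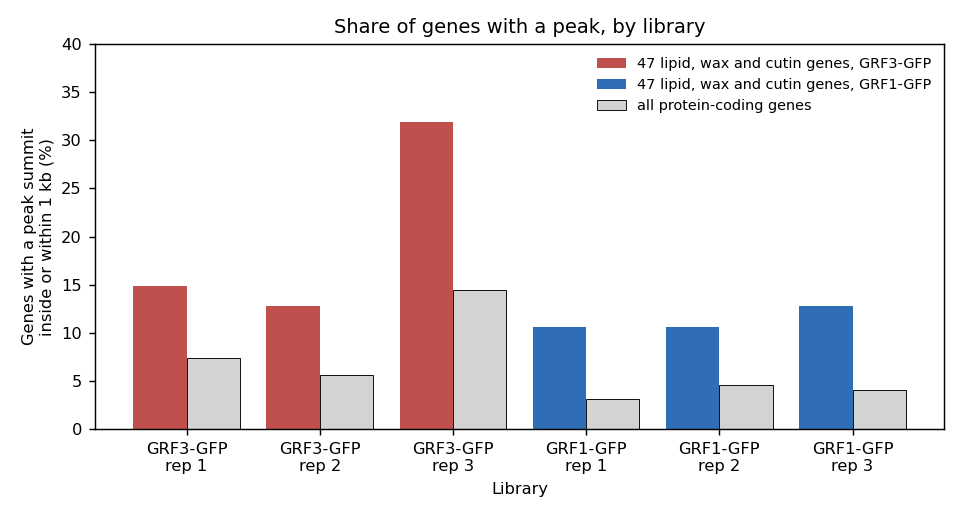
Share of the 47 genes (coloured bars) and of all 27444 protein-coding genes (grey bars) with a peak summit inside or within 1 kb, for each of the 3 GRF3-GFP and 3 GRF1-GFP libraries. The share is highest in GRF3-GFP replicate 3 for both sets, at 31.9% of the 47 genes and 14.5% of all genes.

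The list of GRF3-GFP replicate 3 was the longest, with 5944 peaks against 2258 and 2301 in replicates 1 and 2. Without it, genes with a GRF3-GFP peak fell from 18 to 8 in the set and from 5070 to 2628 among all protein-coding genes. A fall of this size does not set these genes apart. How many of all genes with a peak in 1 GRF3-GFP library only had it in replicate 3 was not computed. In the set, GRF3-GFP replicate 3 alone accounted for 10 of the 13 genes that had a GRF3-GFP peak in 1 library only. These were the condensing enzyme genes KCS2, KCS4, KCS10, KCS11, KCS14 and KCS20, the acyltransferase genes GPAT3, GPAT5 and GPAT8, and CER2, whose product helps wax chains reach their full length. KCS2 and KCS20 act together in root suberin, KCS10 is FIDDLEHEAD, which keeps organs from fusing, and GPAT5 makes suberin in root and seed coat. The 10 peaks had folds of 2.04 to 3.13 (median 2.42) and −log10 q of 2.33 to 5.89, while the median fold of that list was 2.56. Their summits lay inside the gene at 8 of the 10, the others being CER2 and KCS20. The share inside genes over all such peaks of that list was not computed. The CER2 summit was also inside SIC and the KCS20 summit inside AT5G43770, the neighbouring genes.

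The remaining genes with a GRF3-GFP peak in 1 library only were CER10, KCS16 and GPAT6. CER10, the enoyl-CoA reductase of the last elongation step, had a fold of 2.14 in replicate 1, and KCS16 had a fold of 2.54 in replicate 2. GPAT6, which makes cutin in flowers, had a fold of 2.88 in replicate 1, with the summit 280 bp left of the gene. The −log10 q of the GPAT6 peak was 108, against a median of 5.99 over the 305 other peaks of that list whose fold was within 10% of it, 9 of which reached as high. For GRF1-GFP, GPAT3 had a peak in replicate 2 (fold 3.56, 766 bp left of the gene and 45 bp from NFU1), and CER2 in replicate 3 (fold 3.25, inside the gene). Neither overlapped the GRF3-GFP peak at the same gene.

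Most of the set had no peak. No list had one at 28 of the 47 genes (59.6%), and 19 had one in any library (40.4%), against 22.0% of all genes. The 28 included the genes best known for stem and leaf wax. These were KCS6 (CER6) and KCS1, condensing enzymes of wax, CER1 and CER3, which form alkanes, CER4, a reductase that forms primary alcohols, CER5, an ABC transporter that exports wax, and CER26, a relative of CER2. LACS1 (CER8) and LACS2, acyl-CoA synthetases of wax and cutin, and GPAT4, the cutin partner of GPAT8, were also among them, as were CER7, a subunit of the RNA-degrading exosome, and CER9, a ubiquitin ligase. The others were KCS5 (CER60), KCS7, KCS8, KCS9, KCS13, KCS15, KCS19, KCS21, LACS4, LACS6, LACS7, LACS8, LACS9, GPAT1, GPAT2 and GPAT9. A gene with no peak is one where the caller listed none, which at an unknown depth does not show that the factor was absent.

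Summits at KCS11 lay just past the limit of 1 kb. Its nearest summits outside the limit were 1118 and 1114 bp left of the gene in GRF3-GFP replicates 1 and 3 (folds 4.64 and 21.3) and 1116 and 1113 bp left in GRF1-GFP replicates 1 and 3 (folds 6.76 and 5.62). The farthest summit inside the limit was that of GPAT8 in GRF1-GFP replicate 1, at 826 bp and a fold of 3.12.

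Among other genes of cuticle and suberin formation, 48 genes found from 52 listed names, shares with a region were near those of all genes. Of the 48, 3 had a GRF3-GFP region (6.25%, against 5.52% of all genes) and 2 a GRF1-GFP region (4.17%, against 3.11%), and 11 had a peak in any list (22.9%, against 22.0%). The GRF3-GFP genes were all among the 14 for cutin and suberin synthesis (21.4%, against 5.52% of all genes), with low folds in 2 libraries each. Of these 14, 7 had a GRF3-GFP peak in any library, against 18.5% of all genes. No GRF1-GFP library had a peak at them, against 6.33% of all genes with a GRF1-GFP peak in any library. At that low share, none among 14 genes is not a contrast between the factors. ATT1, a fatty acid hydroxylase of cutin, had folds of 2.09 and 1.97 in replicates 1 and 3. HORST, its counterpart in root suberin, had folds of 2.40 and 1.96 in replicates 1 and 3, and FACT, which makes caffeate esters of root wax, had folds of 1.94 and 1.87 in replicates 1 and 2. GRF3-GFP replicate 3 had a peak on the other side of FACT, 655 bp right of the gene, with a fold of 2.57.

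The GRF1-GFP genes were both among the 13 transcription factors (15.4%, against 3.11% of all genes). MYB94, an activator of wax synthesis genes, had folds of 14.2, 9.58 and 16.3 in GRF1-GFP replicates 1, 2 and 3 (mean 13.4 ± 3.4, SD, n = 3), at chromosome 3, 17541282 to 17541550, with the summit 33 bp right of the gene. GRF3-GFP replicate 1 also had a peak there, with a fold of 5.71. HDG1, a homeodomain factor gene of the epidermis, had folds of 2.84, 5.36 and 4.09 in GRF1-GFP replicates 1, 2 and 3 (mean 4.10 ± 1.26, SD, n = 3). The 10 export genes had no peak, at a background of 22.0% of all genes, and of the 11 genes for elongation and for the alkane and alcohol branches, FAR1 had 1 peak in GRF3-GFP replicate 3 (fold 3.17) and ACC1 had 1 in replicate 2 (fold 2.23).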

How the data were processed

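The data were 6 peak lists, 1 per GRF3-GFP or GRF1-GFP library, so peaks were called per library. The submitters' processing notes name FastQC, Trimmomatic, Bowtie2, MACS2 and the build TAIR10 but give no version, setting or role, and which control the caller used is not stated. For each peak the authors deposited a position, a summit, a fold (a ratio over the control), a −log10 p-value, a −log10 q-value, and a score equal to 10 times the −log10 q, cut to a whole number, in all 14913 peaks. Depth is unknown and no interval was computed.

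Regions were runs of peaks overlapping by at least 1 bp in at least 2 of 3 libraries, with the median of the libraries' summits as summit. Gene spans and names came from RefSeq TAIR10.1 (Columbia), without strand or exons; its coordinates are not printed, and a difference between it and the files' TAIR10 would shift the distances. Printed coordinates are those of the files, counted from 1. Python 3.11.15 with pandas 2.3.3 was used, and the region and gene matching was checked on simulated peaks with known answers. The genes, lists and alternatives were chosen with earlier results of these data known. Every gene with a peak is named, as is each other pathway gene with a region and 2 more with 1 peak, chosen after their values were seen. Of the 52 pathway names, 3 were not found and 1 repeated another. The labels describe planting in replicate blocks but do not tie library numbers to them, so libraries were treated as separate samples, with differences within numbers as an alternative. The motif search planned was not made, because no sequence was used here.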

Additional observations from a re-analysis of the deposited data

How the results depend on the processing

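Counts of genes with a region changed by over 1.5 times in 1 setting: with the summit inside the span only, 1 gene remained for GRF3-GFP and 2 for GRF1-GFP, by construction, since the other regions lie outside spans. In all other settings they ran from 4 to 7 for GRF3-GFP and from 4 to 6 for GRF1-GFP, and leaving out each library in turn gave 5 for GRF3-GFP each time and 4 to 5 for GRF1-GFP. For region counts, the share of all genes at each changed window or peak filter was not computed. These counts therefore show only how far the number of genes moved. Genes with a GRF3-GFP peak in any library (18) fell to 7 at a −log10 q of at least 5 (14.9%, against 7.44% of all genes), to 5 at a fold of at least 4 (10.6%, against 3.21%) and to 6 with all lists reduced to 1122 peaks (12.8%, against 4.40%), and ran from 8 to 17 when leaving out each library, 8 being without replicate 3. Genes with a GRF1-GFP peak in any library (7) fell to 4 with the summit inside the span only, and ran from 6 to 7 when leaving out each library. At a −log10 q of at least 5 they were 7 (14.9%, against 4.45% of all genes). At a fold of at least 4 they were 5 (10.6%, against 3.39%), and with lists of 1122 peaks they were 7 (14.9%, against 5.66%). The difference between the factors in genes per library (4) was 0 with lists of equal length, 0.333 at a −log10 q of at least 5, and ran from 1.17 to 5.67 when leaving out each library; settings for this difference, the replicate block included, and leaving out libraries for mean folds, were added after seeing the data. No gene was set aside as named for an unrelated enzyme, so the setting without such genes kept all 47 and its counts were unchanged by construction. With the replicate number as a block, the mean of the paired differences was also 4 genes, by construction; it has no test. Unknown depth limits every statement that a peak is missing.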
